A study of Mus musculus with 3 samples.

Results

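Naive-like T cells of the mouse liver were chosen by the UMIs of each cell, a UMI being a count of 1 captured mRNA molecule. A member had 200 to 4000 detected genes, at most 25% of UMIs from the mitochondrial genome, at least 1 UMI of the CD3 chains Cd3d, Cd3e and Cd3g together, and at least 2 UMIs of Lef1, Tcf7, Ccr7 and Dapl1 together. It had no UMI of Foxp3, of the inhibitory receptors and effector genes Gzmk, Pdcd1, Lag3 and Tigit, of the innate-like lymphocyte genes Cxcr6, Il4, Zbtb16, Trdc and Ncr1, or of the B cell gene Cd79a, and at most 2 UMIs of the Kupffer cell genes Clec4f and Vsig4. The rule found 1071 members among 52335 cells in the tables, 467 in the WT-only library and 604 in the HFHC pool. They were part of 3609 and 3113 T cells and of 23346 and 19625 cells that passed the limits on genes and mitochondrial UMIs.

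The study asked how diet and loss of Chi3l1, a secreted chitinase-like protein, affect the macrophages of the fatty liver, and profiled liver cells of C57BL/6J mice isolated by collagenase perfusion on the BD Rhapsody whole-transcriptome platform. The study's methods describe these as non-parenchymal cells, whereas the labels write parenchymal. The HFHC pool, titled WT_HCFC and Chil1-/-_HFHC, held cells of wild-type and of Chil1-/- (Chi3l1-deficient) mice on the high-fat, high-cholesterol diet in 1 library, and the cells were not assigned to a genotype because the sample-tag library was not analysed here. The WT-only library came from wild-type mice and is titled MCD, while the study's text describes a normal chow diet and the header of its table names the library APAP0h, so its diet is uncertain. For chow-fed livers the study's text gives, under the same limits on genes and mitochondrial UMIs, nearly the number of cells kept here from this table. For HFHC livers of both genotypes together it gives fewer cells than were kept here from the HFHC pool. The number of mice behind each library and their age are not given in the sources used here. With 1 library on each side, diet, genotype, capture and sequencing cannot be told apart, no test between the groups was possible, and every interval below covers counting error only.

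Naive T cells are mature lymphocytes that have left the thymus and have not yet met their antigen. They circulate between blood and lymphoid organs with homing receptors such as CCR7, leave tissue again through the sphingosine receptor S1PR1, and survive on interleukin 7, while transcription factors such as LEF1, TCF1 (Tcf7) and KLF2 hold them in a resting state. In the liver they pass through the sinusoids beside memory, innate-like and resident T cells.

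The 4 genes of the rule differed in how they made up the members, which is a description since these genes chose the cells. Levels are CPM, the UMIs of a gene divided by all UMIs summed over the cells of a group and scaled to a total of 1000000. Tcf7 had a level of 907.6 CPM in the WT-only library and 1292 CPM in the HFHC pool, and 84.4% and 96.4% of members had a UMI of it. Lef1 had 624.7 and 423.9 CPM, and Ccr7 had 324.7 and 274.1 CPM. Dapl1, a gene of resting CD8 and CD4 T cells, stood at 335.1 CPM in the WT-only library and 130.7 CPM in the HFHC pool. The median member had 4 UMIs of the 4 genes together in the WT-only library and 7 in the deeper HFHC pool, and 46 and 81 members had UMIs of all 4.

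At the threshold of 2 UMIs, Klf2 was higher just inside than just outside in both libraries, while the order of Ccl5 differed. In the WT-only library, the 91 members with exactly 2 UMIs had 634.1 CPM of Klf2 and 1183 CPM of Ccl5, and the 126 cells with 1 UMI that met the rest of the rule had 464 and 2614 CPM. In the HFHC pool, the 65 members at the threshold had 895.9 CPM of Klf2 and 5482 CPM of Ccl5, and the 70 cells just outside had 521.2 and 4279 CPM. Cells on both sides of the threshold thus carried Ccl5, a chemokine gene of memory and effector T cells. In cells of other types, at least 2 UMIs of the 4 genes were found in 0.233% of Kupffer cells of the WT-only library and 0.254% of the HFHC pool (median depth 4794 and 10070 UMIs). Kupffer cells here had at least 5 UMIs of Clec4f and Vsig4, B cells at least 3 of Cd79a, Cd79b and Ms4a1, and both no CD3 UMI. This left out cells that held CD3 mRNA, so the Kupffer cell share may understate the background. In B cells, with 1402 and 2752 UMIs, the shares were 7.29% and 23.5%. B cells express Ccr7 themselves, with a UMI in 23.7% and 41.5% of them, and had a UMI of Lef1, Tcf7 or Dapl1 in at most 2.37%, so that their share is no measure of background.

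The label was set beside marker lists. At least 3 UMIs of a list of 10 T cell genes were present in 99.1% of members of the WT-only library and 99.2% of the HFHC pool, which the rule fixed in part, since the list holds its 3 CD3 chains. At least 3 UMIs of the B cell list were found in 17.1% and 35.4% of members, of the monocyte and macrophage list in 31.5% and 43.5%, of the hepatocyte list in 32.5% and 36.6%, and of the NK cell list in 9.85% and 15.7%. These shares are without thinning, and the HFHC pool was deeper. The monocyte and macrophage list holds Ly6c2, which memory CD8 T cells also express, so its share does not count macrophage mRNA alone. A UMI of Ly6c2 was found in 32.1% and 42.7% of members. The summed levels of these lists were lower in members than in the other T cells of each library. For the B cell list the gap was small in the WT-only library (924.7 against 930.0 CPM) and larger in the HFHC pool (1036 against 1392 CPM). Cd79a, which the rule excluded, was at 0 in both libraries. So was Ncr1 of the NK cell list, which the rule also excluded. T cells with Ncr1 or another excluded innate-like gene were placed among the other T cells, so the gap of the NK cell list is not independent of the rule. The members had a median of 1958 UMIs and 1023 genes in the WT-only library and 3536 UMIs and 1514 genes in the HFHC pool, close to the 1858 and 3421 UMIs of the other T cells. The tables shared 756 cell barcodes, held by 13 and 16 members, and no barcode was a member in both. The levels of homing and quiescence genes below match the name naive-like, but part of the members, more of them in the HFHC pool, also carried genes of memory T cells, and those are described apart.

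Naive-like cells were 12.94% of T cells in the WT-only library (11.86 to 14.08, 95% exact binomial interval) and 19.4% in the HFHC pool (18.03 to 20.84). With each cell thinned to 1000 UMIs before the rule, which left out shallower cells, the shares were 10.87% of 2797 T cells and 14.88% of 2494 T cells. Of these thinned members, 268 of 304 and 285 of 371 were also members with all UMIs, because thinning hides UMIs of the excluded genes as well as of the rule genes. Without the members that had a UMI of Ccl5, a chemokine gene of memory and effector T cells, the shares were 10.25% (9.281 to 11.29) and 10.57% (9.51 to 11.7), and the intervals overlapped. Among Cd4 and Cd8a cells, defined by at least 1 UMI of one co-receptor and none of the other, the order depended on the lineage. Naive-like cells were 16.95% of 1044 Cd4 T cells in the WT-only library and 25.06% of 838 in the HFHC pool, but 17.64% (14.67 to 20.92) and 14.6% (11.33 to 18.39) after thinning, so that the order turned and the intervals overlapped. They were 48.98% of 343 Cd8a T cells in the WT-only library and 28.15% of 952 in the HFHC pool, and 30.21% and 17.11% after thinning, with intervals that did not overlap. After thinning, the share was thus lower in the HFHC pool in both lineages, for Cd4 cells within counting error. The thinned share of all T cells was higher, and it also counts T cells with neither or both co-receptors. At least 2 UMIs of Gzmk, Pdcd1, Lag3 and Tigit together were found in 2.915% of WT-only Cd8a T cells and 42.12% of Cd8a T cells of the HFHC pool. The rule keeps such cells out of the members, so both shares are tied to each other by the selection.

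**Figure D1:**
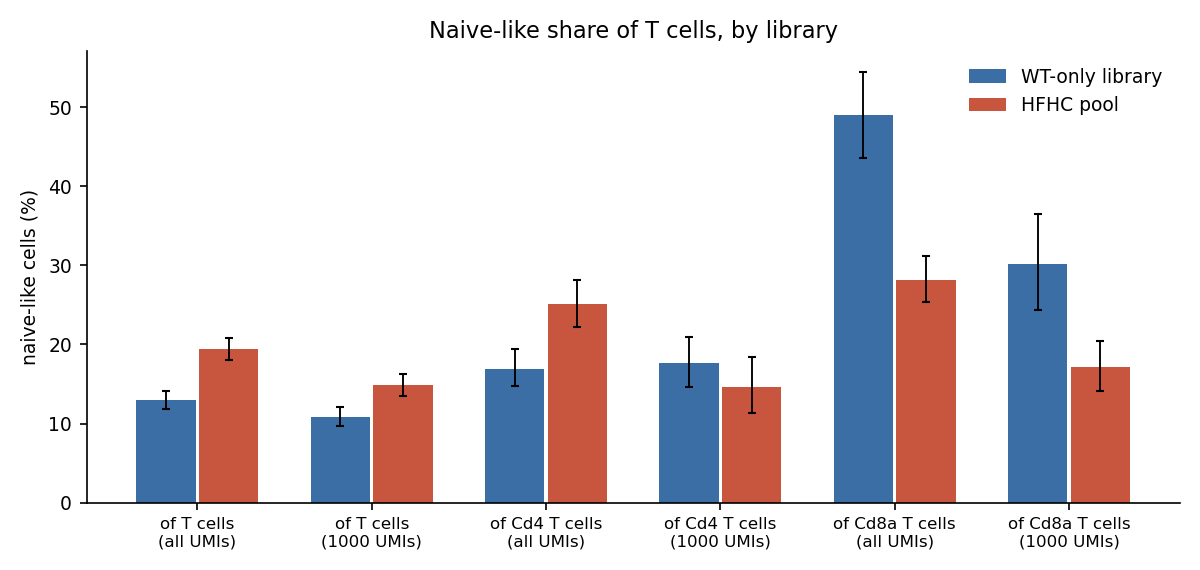
Naive-like cells as a percentage of all T cells, of Cd4 T cells and of Cd8a T cells (y axis, %) in each library, with all UMIs and with cells thinned to 1000 UMIs; bars are shares and lines are 95% exact binomial intervals for counting error. The Cd8a share was lower in the HFHC pool in both settings, and the Cd4 share changed its order with thinning.

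The members held cells of both lineages. In the WT-only library 177 were Cd4 cells, 168 Cd8a cells, 1 had both co-receptors and 121 neither. In the HFHC pool 210 were Cd4 cells, 268 Cd8a cells, 2 had both and 124 neither. The Cd8a cells were 48.7% (43.31 to 54.11) and 56.07% (51.49 to 60.57) of members with a single co-receptor, against 16.79% and 52.13% among the other T cells. Thinned to 1000 UMIs they were 40.11% and 62.96%, and without members that had a Ccl5 UMI 39.35% and 37.82%. Cd8b1, the second chain of the CD8 co-receptor and no part of the rule, had a UMI in 86.9% and 91.04% of Cd8a members, in 1.695% and 4.762% of Cd4 members, and in 35.54% and 22.58% of members without either co-receptor. Some members without a co-receptor UMI thus carried the second CD8 chain.

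Genes of homing and rest set the naive-like cells apart from the other T cells in both libraries. S1pr1, the exit receptor, had a level of 331.3 CPM in members and 56.04 CPM in the other T cells of the WT-only library, and 449.7 and 151.6 CPM in the HFHC pool. The log2 ratio was 2.56 (2.35 to 2.78) and 1.57 (1.45 to 1.68), with intervals for counting error. Klf2, which drives S1pr1 in resting T cells, stood at 900.0 against 184.2 CPM and at 1053 against 344.5 CPM. Il7r, the interleukin 7 receptor, stood at 1497 against 649.7 CPM and at 1392 against 681.9 CPM. All 3 were thus higher in members in each library, by a log2 ratio of 1.03 (Il7r in the HFHC pool) to 2.56 (S1pr1 in the WT-only library).

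The separation from the other T cells held at equal depth. Thinned to 1000 UMIs, 28.2% of members of the WT-only library and 38.5% of the HFHC pool had a UMI of S1pr1 (47.3% and 70.0% without thinning), against 4.29% and 12.4% of the other T cells and 0.704% and 0.260% of Kupffer cells. Klf2 was found in 57.3% and 58.6% of thinned members (74.1% and 85.1% without thinning) and in 11.6% and 21.4% of the other T cells. Thinned Kupffer cells lay between, with a UMI of Klf2 in 33.38% and 31.25% of them. Il7r was found in 66.6% and 60.8% of thinned members (82.4% and 83.3% without thinning), in 34.6% and 32.7% of the other T cells and in 1.27% and 0.680% of thinned B cells. Klf2 and S1pr1 did not set the members apart from B cells to the same degree, with 58.8% and 56.6% of thinned B cells holding a UMI of Klf2 and 21.8% and 28.7% one of S1pr1.

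Of 7851 genes with enough UMIs, 62 (0.79%) were at least 2-fold higher in members than in the other T cells of both libraries and 311 (3.96%) at least 2-fold lower. Enough UMIs means at least 100 in the groups compared, and 1 UMI was added to each sum. The cells were chosen by expression, so these counts describe the members and test nothing. Ranked by the smaller of both ratios, Actn1, an actin cross-linker, came first with 484.2 against 82.36 CPM in the WT-only library and 378.6 against 63.35 CPM in the HFHC pool, a log2 ratio of 2.56 and 2.58. Nsg2, an endosomal protein (3.90 and 2.47), the sialyltransferases St8sia6 (3.34 and 2.53) and St8sia1 (3.36 and 2.17) and the interleukin 6 receptor Il6ra (2.62 and 2.40) were also among the 10 highest. Treml2, Als2cl, Fam241a and Frat2, also of the 10 highest, lay between 1.77 and 2.87.

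Genes of cytotoxic granules and of the γδ T cell receptor were among the 10 lowest. Gzma, granzyme A, had 10.44 CPM in members and 529.5 CPM in the other T cells of the WT-only library, and 8.461 and 538.7 CPM in the HFHC pool. Gzmb, granzyme B, had 14.24 against 669.7 CPM and 33.42 against 410.1 CPM. Tcrg-C1, a constant chain of the γδ T cell receptor, had 18.99 against 333.4 CPM and 9.730 against 164.1 CPM. Gamma delta and innate-like cells were removed from the members by the rule, through Trdc, Zbtb16 and Cxcr6, which bears on this last gene. T cells with Gzmk, Pdcd1, Lag3, Tigit, Ncr1 or Il4 were also placed among the other T cells. The low levels of the granzymes and of the other lowest genes are thus not independent of the selection. Tmem273, Atp8a2, Ly6g5b, Zfp683, Gm36723, Hic1 and Klrb1b were the others of the 10 lowest.

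Counted by list, 12 of 30 naive and quiescence genes were at least 2-fold higher in members of both libraries and none lower, with median log2 ratios of 1.09 in the WT-only library and 0.82 in the HFHC pool, beside −0.17 and −0.15 over all genes, of which 0.79% were higher and 3.96% lower. The 12 included Itga6 (1.75 and 1.03), Bach2, a repressor of effector genes (1.87 and 1.52), Rflnb (1.64 and 2.03), Ly6c1 (1.30 and 1.39) and Tob1, an antiproliferative factor (1.11 and 1.14). Of 38 memory and effector genes, 16 were lower, beside the same 3.96%, and none higher, with medians of −1.35 and −1.03. Ly6c2, which central memory CD8 cells express strongly, was an exception with 0.40 and 0.53. The cytosolic ribosome list had no gene past 2-fold of 81, but its medians were 0.76 and 0.60, and its genes took 188310 CPM in members against 108741 CPM in the other T cells of the WT-only library, and 176221 against 113451 CPM in the HFHC pool.

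**Figure D2:**
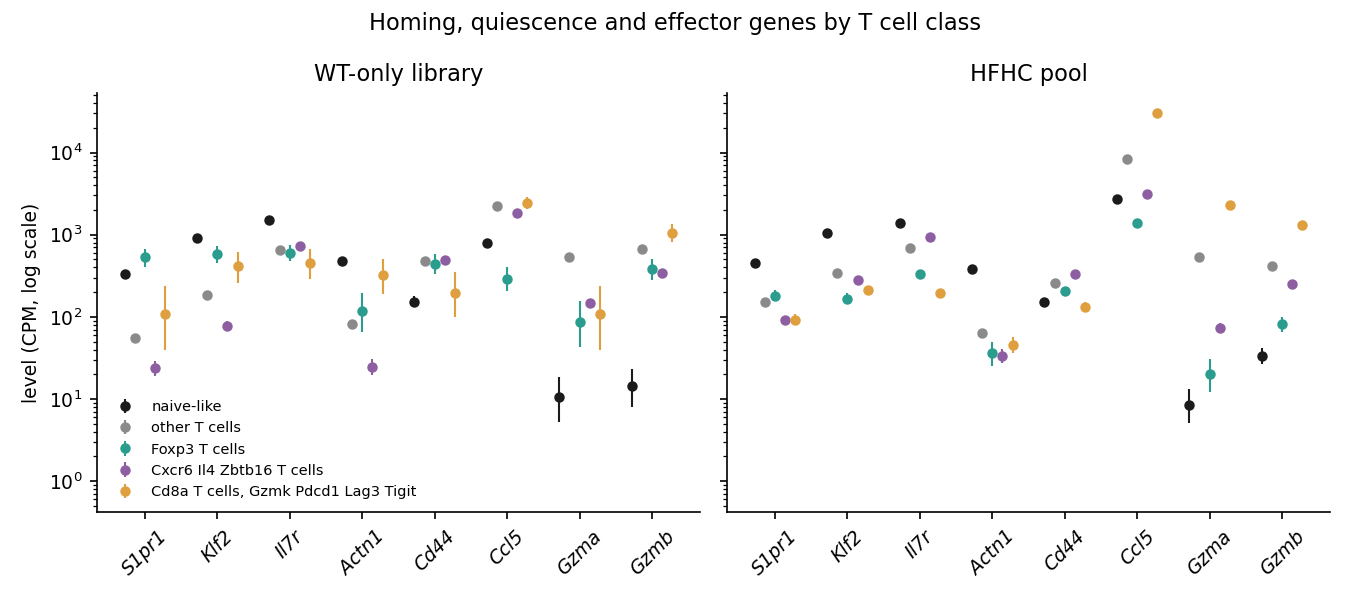
Levels of 8 genes (y axis, CPM on a log scale) in naive-like cells and in 4 other sets of T cells of the WT-only library (left) and the HFHC pool (right); points are levels and lines are 95% exact Poisson intervals for counting error. S1pr1, Klf2, Il7r and Actn1 were higher in naive-like cells than in the pooled other T cells, and Gzma and Gzmb were lowest in naive-like cells in both libraries.

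Set beside single T cell classes of the HFHC pool, Klf2 was lower in each than in naive-like cells. It stood at 166.7 CPM in Foxp3 T cells (272 cells, the regulatory T cell class). In Cd8a T cells with at least 2 UMIs of Gzmk, Pdcd1, Lag3 and Tigit together (412 cells) it stood at 211.5 CPM. In T cells with at least 2 UMIs of Cxcr6, Il4 and Zbtb16 together (775 cells) it stood at 277.4 CPM, against 1053 CPM in naive-like cells. The Cd8a class and the Cxcr6, Il4 and Zbtb16 class had no Foxp3 UMI. The latter also had no Trdc or Ncr1 UMI and no cell of the Cd8a class. In the WT-only library the same classes had 576.3, 412.9 and 78.1 CPM of Klf2 against 900.0 CPM. S1pr1 did not keep this order, with 528.9 CPM in the 50 Foxp3 T cells of the WT-only library against 331.3 CPM in naive-like cells. The class of Cd8a cells with these 4 genes held 10 cells in the WT-only library, too few for a firm level.

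Members with Tcf7 as their single rule gene differed from the rest in Ccl5 and Igfbp4 in both libraries. They were 37 of 467 in the WT-only library (7.92%) and 137 of 604 in the HFHC pool (22.7%). TCF1 is also kept by memory T cells, whereas LEF1 and CCR7 mark the naive state more closely. In the HFHC pool the Tcf7-only members had 142.2 CPM of Actn1 against 439.7 CPM in members with Lef1, Ccr7 or Dapl1, and 4611 against 2211 CPM of Ccl5. In the WT-only library they had 427.7 (292.5 to 603.7) against 488.5 CPM (445.7 to 534.3) of Actn1, intervals that overlapped, and 2005 against 697.0 CPM of Ccl5. Igfbp4, an insulin-like growth factor binding protein of naive T cells, was 70.05 against 302.9 CPM in the HFHC pool and 93.55 against 630.6 CPM in the WT-only library. Without the Tcf7-only members, 430 of 3609 T cells were naive-like in the WT-only library and 467 of 3113 (15.0%) in the HFHC pool.

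Ccl5 was a memory gene that part of the members carried. It had a level of 789.9 CPM in the WT-only library and 2704 CPM in the HFHC pool, a log2 ratio of 1.77 (1.67 to 1.88), below the 2250 and 8407 CPM of the other T cells. A Ccl5 UMI was found in 20.8% and 45.5% of members, and in 17.4% and 39.0% after thinning to 1000 UMIs, against 1.73% and 3.17% of thinned B cells (2.50% and 7.68% without thinning). The members with 10 or more UMIs were 6.85% in the WT-only library and 31.3% in the HFHC pool. The shares differed by lineage. Of Cd8a members, 8.93% of 168 in the WT-only library and 46.3% of 268 in the HFHC pool had at least 10 UMIs. Of members with neither co-receptor the shares were 12.4% and 45.2%, and of Cd4 members 1.13% and 3.81%. The Cd8a members of the HFHC pool were also deeper, with a median of 4092 UMIs against 2469. Thinned to 1000 UMIs, 27.3% of Cd8a members of the WT-only library and 52.8% of the HFHC pool had a Ccl5 UMI (35.1% and 61.2% without thinning). The Ccl5 shares alone do not measure memory cells among Cd4 members. Thinned Cd4 members had a UMI of S100a4 in 2.34% and 9.52%, of S100a6 in 8.19% and 17.1% and of Cd44 in 12.3% and 14.3%. Cd44 was less frequent in thinned Cd8a members (8.5% and 6.37%), while Il2rb was more frequent in them (37.6% and 33.0%, against 11.1% and 17.1% of Cd4 members).

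The Ccl5-high Cd8a members carried genes of memory cells. In the HFHC pool, the 124 Cd8a members with at least 10 Ccl5 UMIs had 2320 CPM of Ly6c2 (2197 to 2448), and the 104 with none had 389.8 CPM (331.8 to 455.1). Il2rb, the shared receptor chain for interleukins 2 and 15, stood at 852.4 against 107.2 CPM and Cxcr3, the receptor for interferon-induced chemokines, at 162.9 against 4.873 CPM. Eomes, a transcription factor of memory CD8 cells, stood at 166.3 against 24.36 CPM and Cd44 at 154.2 against 36.55 CPM. In the other direction, Igfbp4 stood at 55.44 against 338.7 CPM. None of these intervals overlapped between the Ccl5-high and Ccl5-zero cells. The rule genes, which chose the members and support nothing here, stood at 55.44 against 265.6 CPM for Dapl1, 142.1 against 548.2 CPM for Ccr7 and 240.8 against 643.2 CPM for Lef1.

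The WT-only library had fewer such cells. Its 15 Ccl5-high Cd8a members had 2110 CPM of Ly6c2 and 1412 CPM of Il2rb, and its 109 members without Ccl5 had 784.6 and 323.1 CPM. Ly6c2 and Il2rb thus differed by more than their counting error in both libraries. So did Cxcr3, whose intervals lay close to each other (9.992 to 51.21 CPM without Ccl5 and 57.38 to 261.9 CPM with it). Eomes (56.81 without and 199.4 CPM with Ccl5), Cd44 (71.01 and 299 CPM) and Igfbp4 (500.6 and 0 CPM) also had intervals apart. Of the rule genes, the intervals of Lef1 and Ccr7 overlapped and those of Dapl1 did not (461.6 and 66.45 CPM). Ccl5 stood at 30677 CPM in the Cd8a T cells of the HFHC pool with at least 2 UMIs of Gzmk, Pdcd1, Lag3 and Tigit. In B cells of the HFHC pool it stood at 113.9 CPM. The part of free Ccl5 mRNA in the levels of the members was not tested.

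**Figure D3:**
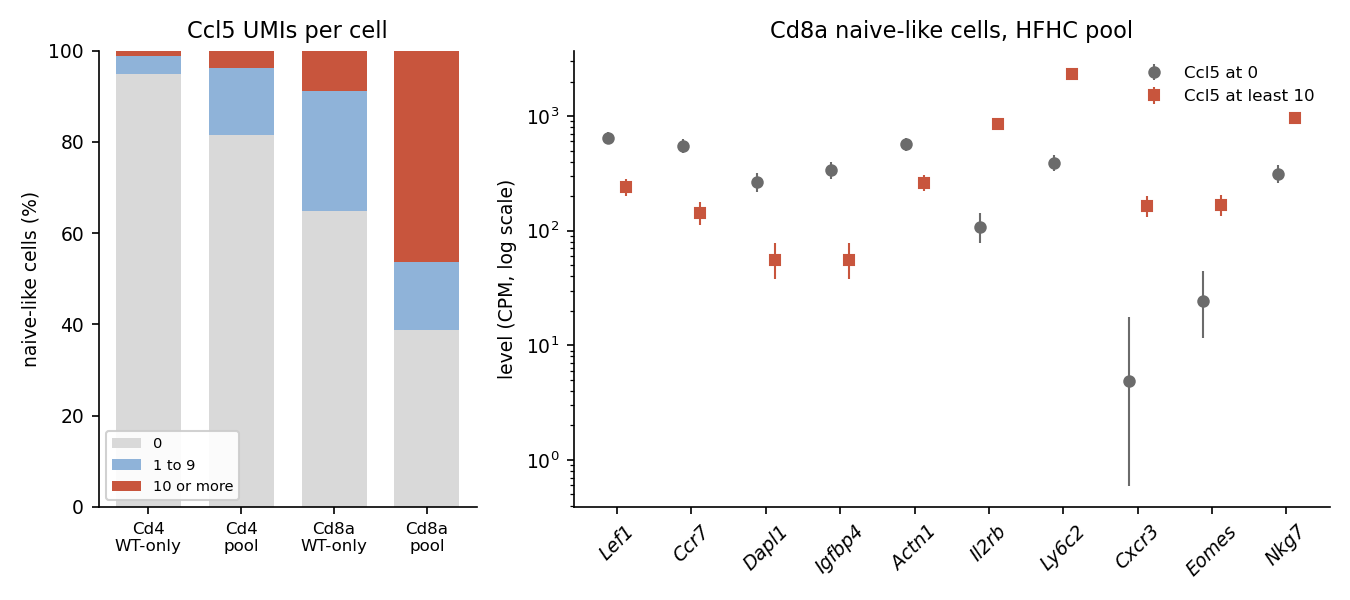
Left, naive-like Cd4 and Cd8a cells of each library by their Ccl5 UMIs per cell (y axis, % of cells; colours, 0, 1 to 9, and 10 or more UMIs). Right, levels (CPM, log scale, with 95% exact Poisson intervals) of 10 genes in Cd8a naive-like cells of the HFHC pool with no Ccl5 (grey circles) and at least 10 Ccl5 UMIs (red squares), with Lef1, Ccr7, Dapl1 and Igfbp4 lower and Ly6c2, Il2rb, Cxcr3, Eomes and Nkg7 higher in the latter. Lef1, Ccr7 and Dapl1 are genes of the rule that chose the cells.

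Between the lineages, few genes differed in both libraries. Of 1330 genes with enough UMIs, 10 (0.752%) were at least 2-fold higher in Cd8a than in Cd4 members of each library and 12 (0.902%) at least 2-fold lower, leaving out the co-receptors that defined the cells. Cd8b1 led with 959.9 against 8.298 CPM in the WT-only library and 1034 against 19.47 CPM in the HFHC pool. Ly6c2 followed with 1216 against 177.0 CPM and 1503 against 194.7 CPM, and Ccl5 with 915.4 against 146.6 CPM and 3493 against 347.7 CPM. The granule protein gene Nkg7 (log2 ratio 2.35 and 3.20), Cd7 (1.88 and 2.11), Klrd1, the CD94 receptor (1.73 and 2.43), Dnajc15 (1.69 and 1.66), Rras2 (1.46 and 2.03), Epsti1 (1.64 and 1.41) and Glipr2 (1.36 and 1.18) completed the higher genes. The memory and effector list went both ways. Of its 18 genes with enough UMIs, Ccl5, Nkg7, Klrd1 and Ly6c2 were higher and Maf and Itgb1 lower in Cd8a members, with medians of 0.50 in the WT-only library and −0.25 in the HFHC pool.

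Cd4 members were higher in Ly6a, the antigen Sca-1, with 525.5 CPM against 61.45 CPM in Cd8a members of the WT-only library and 568.9 against 90.79 CPM in the HFHC pool. Igfbp4 stood at 976.4 against 324.2 CPM and at 439.5 against 161.4 CPM, and Trat1, a T cell receptor adaptor, at 257.2 against 74.17 CPM and at 187.8 against 31.10 CPM. Maf, a transcription factor of helper and memory cells (log2 ratio of Cd8a over Cd4 −1.43 and −2.61), Itgb1, the β1 integrin that memory cells carry (−1.09 and −1.62), Il6ra (−1.15 and −1.13), Trib2 (−1.68 and −2.24), Ifi27l2a (−1.49 and −1.97), Znrf1 (−1.34 and −1.28) and Retreg1 (−1.61 and −1.16) were the other genes named by size. The naive and quiescence list had no gene higher and 1 of 21, Igfbp4, lower, beside 0.752% and 0.902% of all genes, with medians of −0.24 and −0.06, beside −0.02 and −0.10 over all genes.

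**Figure D4:**
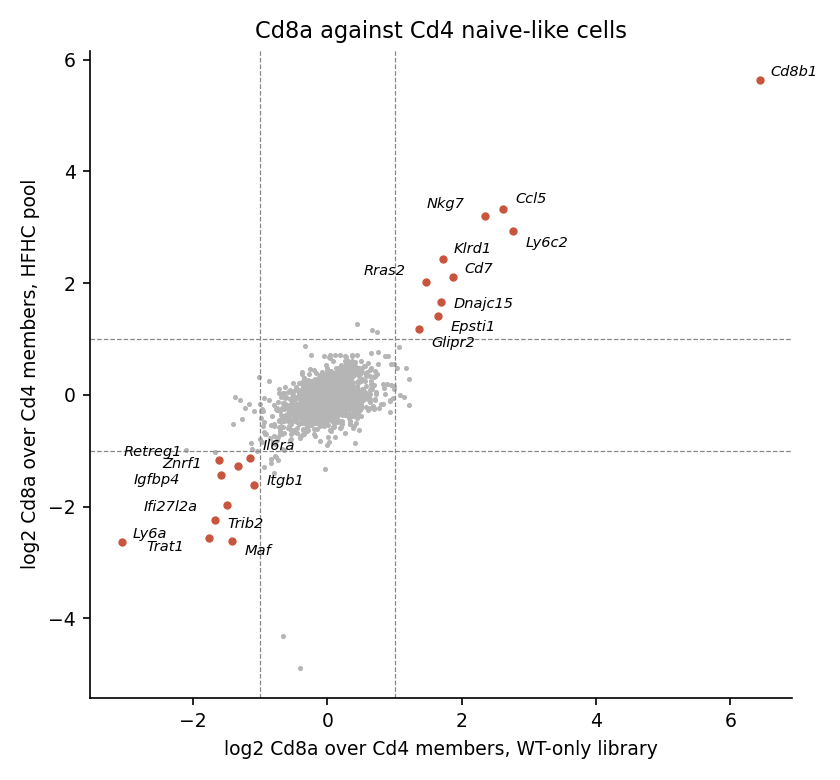
Log2 ratio of the level in Cd8a over Cd4 naive-like cells in the WT-only library (x axis) and the HFHC pool (y axis); each point is 1 of 1330 genes, dashed lines mark 2-fold, and red points are the genes named by size. Most genes lay inside the 2-fold lines, with Cd8b1, Ccl5, Nkg7 and Ly6c2 at the upper right and Ly6a, Trat1 and Maf at the lower left.

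Between the libraries, immediate-early genes were among those with higher levels in naive-like cells of the HFHC pool. Of 5052 genes with enough UMIs, 248 (4.91%) were at least 2-fold higher in members of the HFHC pool and 113 (2.24%) at least 2-fold lower, and the median log2 ratio over all genes was 0.04. Of 29 immediate-early genes, which many cells switch on within minutes of a stimulus and also during tissue dissociation, 16 were higher and none lower, with a median of 1.12. Fos, a subunit of the AP-1 transcription factor, had 141 UMIs and 133.9 CPM in the WT-only library and 2396 UMIs and 1014 CPM in the HFHC pool, a log2 ratio of 2.91 (2.68 to 3.18). Of the UMIs in the WT-only library 55.3% lay in 10 cells, and without members that carried at least 3 UMIs of neutrophil, endothelial or Kupffer cell markers the ratio was 4.62. Its partner Jun stood at 175.6 and 867.6 CPM and Junb at 321.8 and 1181 CPM. Fosb (3.73) and Ier2 (3.08) were among the 10 highest ranked genes. The ranking between the libraries took genes with at least 100 UMIs together and at least 10 in each library. It left out mitochondrial, ribosomal-protein, haemoglobin, immunoglobulin and hepatocyte-list genes. Myc (−0.18), Dusp2 (−0.12) and Zfp36l2 (0.10) of the same list lay near 0.

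The immediate-early list was also higher in the other T cells and in B cells of the HFHC pool. The list's median was 1.05 in the other T cells and 0.79 in B cells, and 1.09 and 1.16 in Cd4 and Cd8a members. Thinned to 1000 UMIs, the median naive-like cell had 5 UMIs of the list in the WT-only library and 11 in the HFHC pool, the median other T cell 7 and 10, and the median B cell 8 and 15. Fos was found in 9.03% and 43.9% of thinned members (12.6% and 65.6% without thinning), in 8.02% and 23.5% of the other T cells, in 13.9% and 49.9% of B cells and in 31.8% and 45.1% of Kupffer cells, all thinned. All 4 were higher in the HFHC pool, by unequal amounts. Whether handling of the tissue played a part was not tested, and it cannot be told apart from diet or library here.

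Among the ranked genes higher in the HFHC pool, Hspa1a and Hspa1b had the largest ratios. They encode the inducible HSP70 chaperone and are near-identical copies, so that reads may be split between them by the counting. Hspa1a had 13 UMIs and 12.34 CPM in the WT-only library and 726 UMIs and 307.1 CPM in the HFHC pool, a log2 ratio of 4.53 (3.85 to 5.55). Hspa1b had 35 and 1228 UMIs, 33.23 and 519.5 CPM, and a ratio of 3.93 (3.48 to 4.50). Hspa1a was found in 1.35% and 18.6% of thinned members (1.71% and 31.3% without thinning), and the ratio was 4.90 in the other T cells and 3.95 in B cells. Dnajb1 (1.47) and Dnajb4 (1.11), HSP40 co-chaperones, were the other genes past 2-fold among 17, beside 4.91% of all genes, and the median was 0.64, beside 0.04. The constitutive chaperones Hspa8 (0.79), Hsp90ab1 (0.44) and Hspe1 (−0.23) stood below that threshold.

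The promoter of Hspa1a is shown because this gene had the largest ratio among the ranked genes higher in the HFHC pool. The window holds the 250 bases before the RefSeq start of the gene, at chr17:34972157-34972406 on the minus strand of GRCm38.p6, with the letters that match the heat shock element core GAANNTTC in capitals, and the match lies 104 bases from the start.
Hspa1a: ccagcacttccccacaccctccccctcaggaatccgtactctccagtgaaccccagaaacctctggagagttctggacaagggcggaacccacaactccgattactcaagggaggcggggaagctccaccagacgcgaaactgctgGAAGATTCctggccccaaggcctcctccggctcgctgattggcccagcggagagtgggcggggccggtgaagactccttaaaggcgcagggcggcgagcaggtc
The window of Hspa1b at chr17:34959239-34959488 has the same base at 247 of 250 positions. GAANNTTC or TTCNNGAA, each its own reverse complement and so read on both strands, was found in the windows of 6 of 15 heat shock genes, 2 of 27 immediate-early genes and 4 of 25 naive and quiescence genes, and in 12.91% of 27025 windows of all genes. A match describes letters in this window and does not mark a bound site.

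Most naive and quiescence genes lay inside 2-fold between the libraries. Of 29 genes none was higher and 3 were lower in the HFHC pool, beside 4.91% and 2.24% of all genes, with a median of 0.04. Il7r differed by a log2 ratio of −0.11 (−0.19 to −0.02), Klf2 by 0.23 (0.12 to 0.34) and S1pr1 by 0.44 (0.26 to 0.62). The lower genes were Igfbp4, with 592.4 CPM in the WT-only library and 255.1 CPM in the HFHC pool (−1.22), Ccr9, a homing receptor of the gut, with 80.70 and 31.30 CPM (−1.36), and Ly6c1 with 112.0 and 44.84 CPM (−1.32). Of 29 T cell receptor and signalling genes, Sit1 was lower (−1.18) and none higher, with a median of 0.05. The thinned median of the naive list was 13 UMIs per cell in the WT-only library and 12 in the HFHC pool.

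The memory and effector list was shifted toward the HFHC pool, with 6 of 33 genes higher, 2 lower and a median of 0.49, beside 4.91% and 2.24% of all genes and a median of 0.04. Besides Ccl5, the higher genes included Ifng, interferon gamma, with 5 UMIs in the WT-only library and 112 in the HFHC pool (3.07, interval 2.05 to 4.97), Klrk1, the NKG2D receptor (1.72), Il18rap (1.32) and Tbx21, the transcription factor T-bet (1.03). S100a11 (−1.09) and Lgals3 (−1.10) were lower. Without the members that had a Ccl5 UMI, which left 370 and 329 cells, the list's median was −0.19. This median is over the genes that then had enough UMIs, which leaves out Ccl5. The cells were left out by a gene of this same list, 20.8% of members in the WT-only library and 45.5% in the HFHC pool. The lower median is thus not independent of that selection. Of 9 tissue residence genes 5 were higher, beside the same 4.91% of all genes (Rgs1, Bhlhe40, Nr4a1, Nr4a2 and Tnfaip3), and all of these but Bhlhe40 also belong to the immediate-early list.

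**Figure D5:**
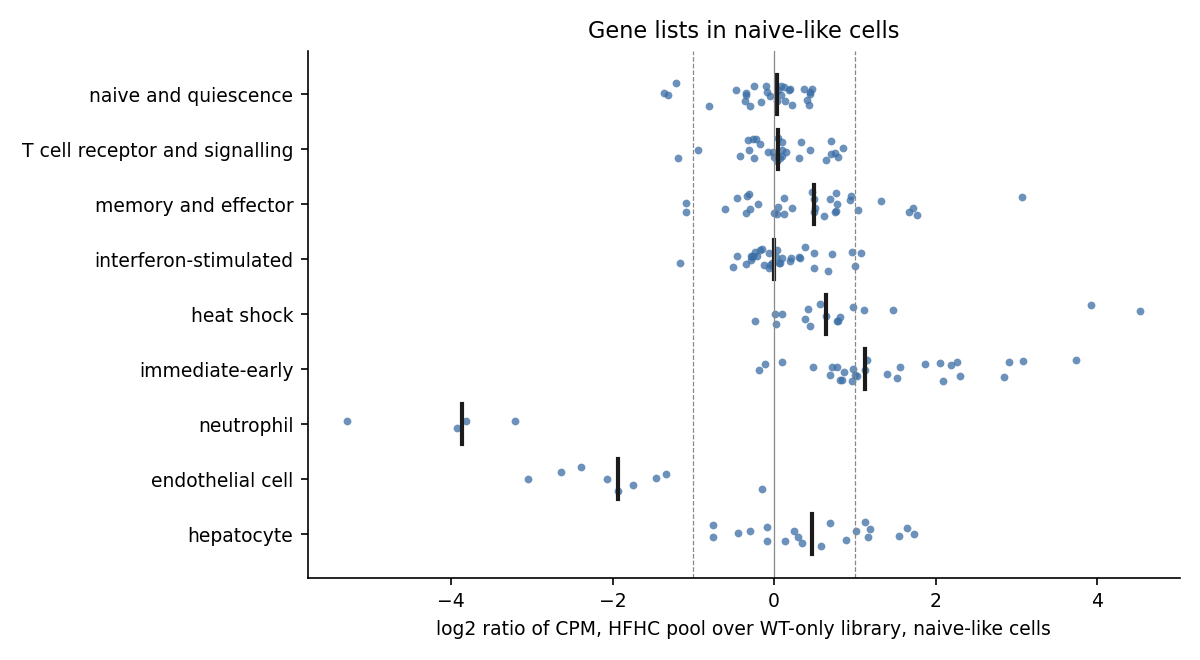
Log2 ratio of the level in naive-like cells of the HFHC pool over the WT-only library (x axis) for the genes of 9 lists; each point is 1 gene with enough UMIs, the black bar is the list's median and dashed lines mark 2-fold. The immediate-early genes lay to the right (median 1.12), the naive and quiescence genes around 0 (0.04), and the neutrophil and endothelial markers to the left, although the endothelial median was 0.39 without the cells that Scrublet called doublets, over the genes that then had enough UMIs.

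Markers of other cells were present in the members and moved with the library. The 10 lowest ranked genes in the HFHC pool were the neutrophil genes Retnlg (−5.28), S100a9 (−3.92), Cxcr2 (−3.82) and S100a8 (−3.20), the sinusoidal endothelial genes Stab2 (−3.05) and Bmp2 (−2.64), and Tinagl1, Plpp3, Ccl6 and Igfbp7 between −2.70 and −2.56. Of the 502 Retnlg UMIs in members of the WT-only library, 91.2% lay in 10 cells. In the HFHC pool, 137 of 151 S100a8 UMIs lay in 1 cell. The whole neutrophil list of 10 genes summed to 1981 CPM in the WT-only library and 142.1 CPM in the HFHC pool, with at least 3 UMIs in 28 and 3 members, and Camp and Ltf at 0 in both. The endothelial list summed to 1151 and 381.2 CPM, and its median ratio was −1.93 with all members and 0.39 without the cells that the doublet caller Scrublet marked. Each median is over the list's genes with enough UMIs in those members, so the genes behind them can differ. The Kupffer cell list summed to 346.5 and 156.5 CPM, and the hepatocyte list to 2878 and 4146 CPM. Without members that had at least 3 UMIs of the neutrophil, endothelial or Kupffer cell lists, which left 356 and 497 cells, 54 genes were lower in place of 113 and none of the 10 lowest had enough UMIs to compare, while Hspa1a had a ratio of 5.53 and Fos of 4.62.

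Hepatocyte genes and several genes expressed in many cell types also differed. Cyp2e1, a hepatocyte cytochrome, had 10.44 CPM in members of the WT-only library and 106.2 CPM in the HFHC pool (3.23). Of 20 hepatocyte markers 7 were higher, beside 4.91% of all genes, led by Fabp1 (1.73), Apoc1 (1.64) and Fgb (1.55), and none was lower, while Mup3 and Apoe each had −0.75. The list's median was 0.46 in members, 0.16 in the other T cells and −0.09 in B cells, where its summed level was 7018 CPM in the WT-only library and 5157 CPM in the HFHC pool. Gpx4, a glutathione peroxidase (3.19), Gnb2, a G protein subunit (2.94), Vps37b (3.51) and the gene model Gm9844 (3.53) were among the 10 highest ranked in members, and their ratios were 2.67, 3.95, 2.84 and 3.25 in B cells. Of 80 ribosomal protein genes 7 were higher and 4 lower in members, beside 4.91% and 2.24% of all genes, with a median of 0.01, and Rps19 (2.54 in members, 2.50 in B cells) and Rpl27a (−1.37 and −1.41) differed by nearly the same amount in both cell types.

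The other lists are given by their genes past 2-fold, beside 4.91% higher and 2.24% lower of all genes. Of 34 interferon-stimulated genes, Iigp1 (1.01) and Gbp5 (1.08), guanosine triphosphatases induced by interferon gamma, were higher and Bst2 (−1.17) was lower, shares near those of all genes, with a median of 0.00. Of 13 activation and proliferation genes, the cell cycle genes Mki67 (−1.20), Top2a (−1.49) and Stmn1 (−1.39) were lower, and Batf (1.31) and Nfkbid (1.30), genes of early activation, were higher, with a median of −0.18. Of 16 genes that respond to glucocorticoids, Cebpb (−1.33) and Pik3ip1 (−1.15) were lower and Rhob (1.36) and Errfi1 (1.30) higher, with a median of −0.05. Of 14 apoptosis regulators, Pmaip1, the BH3 protein NOXA, was higher (2.67, on 6 and 99 UMIs) and Bcl2l11, the BH3 protein BIM, was lower (−1.09). The median was −0.03 over 19 genes of MHC class I presentation, 0.32 over 14 glycolytic genes, −0.15 over 41 nuclear genes of the respiratory chain and −0.25 over 5 inhibitory receptor and exhaustion genes outside the rule.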

How the data were processed

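The authors captured liver cells on the BD Rhapsody system, and per the file headers both tables were made with the BD Rhapsody WTA Analysis Pipeline 1.10.1 on GRCm38 with the GENCODE vM19 annotation. The deposited values are raw counts, the UMIs of each gene in each cell after the vendor's correction of UMIs, not normalized. The tables hold 53720863 UMIs of 30734 cells (WT-only library) and 71981673 UMIs of 21601 cells (HFHC pool). The submitters' notes name Seurat. The table without HFHC in its name was assigned to the sample titled MCD by elimination.

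Cells were kept with 200 to 4000 genes and at most 25% mitochondrial UMIs, and members were taken by the rule given in the report. UMIs were summed per group and scaled to CPM, and ratios were taken after adding 1 UMI to each sum. Genes with at least 100 UMIs were compared, and a ratio of at least 2-fold was counted. Intervals are 95% exact Poisson, binomial or conditional intervals. The 10 highest and 10 lowest genes per comparison and members of the gene lists were named, and any other gene was picked with its values known. Between the libraries, these 10 were ranked among genes with at least 10 UMIs in each library. Mitochondrial, ribosomal-protein, haemoglobin, immunoglobulin and hepatocyte-list genes were left out of that ranking. The rule, the members and the gene lists were chosen with earlier results of these data known. Sequences were taken from RefSeq. Scrublet (scanpy 1.11.5) called 8.13% and 1.95% of kept cells doublets, among them 47 and 40 members (10.06% and 6.62% of members), which were kept. Python 3.11.15, numpy 2.4.6, scipy 1.17.1 and pandas 2.3.3 were used, and the ratio and interval steps were tested on simulated data. The sample-tag library was not analysed here, and some genes are not reported here.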

Additional observations from a re-analysis of the deposited data

Results flagged for a closer look

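Fn1, fibronectin, was higher in naive-like than in the other T cells of the WT-only library (log2 ratio 1.03, on 29 UMIs in members) and lower in the HFHC pool (−1.05, on 31 UMIs). Itgae, the αE integrin CD103, was higher in naive-like cells of the WT-only library (2.09, 37.98 against 9.020 CPM) and lower in the HFHC pool (−1.29, 21.57 against 53.54 CPM). The naive-like share in the HFHC pool less that in the WT-only library was 8.11 percentage points among Cd4 T cells and −20.83 percentage points among Cd8a T cells, and after thinning to 1000 UMIs the share was lower in the HFHC pool in both. These values drew attention because their directions were opposite, and the differences were not tested, since each group is 1 library.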

How the results depend on the processing

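No paired analysis was possible because each group is 1 library and no result comes from a test. Sparse counts limit the members: a cell with few UMIs can miss a rule gene or an excluded gene. The alternatives that leave out members by Tcf7, Ccl5 or markers of other cells were chosen after seeing the data.

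The naive-like share of T cells in the WT-only library and the HFHC pool was 8.20% and 13.2% with a mitochondrial limit of 10%, 10.4% and 17.3% with at least 3 UMIs of the rule genes, 16.4% and 21.6% with at least 1, 14.1% and 21.4% with at least 2 UMIs of the Cd3 genes, 10.9% and 14.9% thinned to 1000 UMIs, 10.2% and 16.5% without members carrying markers of other cells, 15.0% in the HFHC pool without Tcf7-only members, and 10.25% and 10.57% without Ccl5 members. Without Tcf7-only members, 430 of 3609 T cells of the WT-only library were naive-like. The share was higher in the HFHC pool in each of these settings, but by less than the counting error without Ccl5 members. After thinning, it was lower in the HFHC pool among Cd4 T cells (17.64% and 14.6%, with overlapping intervals) and among Cd8a T cells (30.21% and 17.11%). The Cd8a share was 40.1% and 63.0% thinned, 39.35% and 37.82% without Ccl5 members, 54.8% in the WT-only library with Cd8a or Cd8b1, and 51.2% in the HFHC pool at the mitochondrial limit of 10%.

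Genes higher and lower in the HFHC pool numbered 143 and 58 with the rule applied after thinning, 153 and 65 without Ccl5 members, 449 and 236 at 50 UMIs and 131 and 49 at 200 UMIs. They were 154 higher with 10 UMIs added and 54 lower without members carrying markers of other cells. Genes lower in members than in other T cells numbered 191 at the mitochondrial limit of 10%, 205 with 2 Cd3 UMIs, 575 without members carrying markers of other cells, 592 by the mean of each cell's CPM, 202 at 200 UMIs and 125 with 10 UMIs added. For the count of 575, cells with markers of other cells were left out among members only, while the other T cells kept theirs. Genes higher in members numbered 105 when scaled by the median ratio and 106 with totals lacking mitochondrial, ribosomal and hepatocyte genes. Genes higher and lower in Cd8a members numbered 6 and 2 at the mitochondrial limit of 10%, 6 and 5 thinned, 20 and 22 at 50 UMIs and 6 and 4 at 200 UMIs, with 7 lower without members carrying markers of other cells and 6 higher when 2 UMIs marked a co-receptor.

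List medians turned 3 times: 0.39 for the endothelial list without Scrublet doublets, 0.77 for the dendritic cell list after thinning, and −0.19 for the memory and effector list without Ccl5 members. Each median is over the list's genes with enough UMIs in that setting, which can differ from the genes of the main result. The turn of the memory and effector list is not independent of the selection, since Ccl5 belongs to that list. The causes were not tested. The ranges over all alternatives were 0.96 to 1.36 for the immediate-early list, 0.58 to 0.76 for the heat shock list and −0.12 to 0.07 for the naive and quiescence list.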
